A study of Mus musculus with 21 samples.

Results

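The H2 complex, the major histocompatibility complex of the mouse, lies on chromosome 17. The regions described here are those that 4 deposited tables of differential methylated-DNA capture list on chr17 with a start from 33 to 38 Mb (mm9). They number 220 of 49307 listed regions: 51 of 13125 at 3 weeks, 96 of 11975 at 8 weeks, 16 of 7309 at 11 weeks and 57 of 16898 after TNF treatment. Beside the position, the stretch was chosen by measured values: its regions were dense and mostly lower in Tg197 than in WT cells in the 8-week table. Therefore the number and direction of regions in that table are a description with no test. At the edges of the window, the last region before it at 8 weeks had an authors' log2 fold change of -1.49 and the first inside it 1.42, and the last inside it had 0.91 and the first beyond it -1.84.

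MethylCap-seq, in which a protein that binds methylated CpGs pulls down DNA fragments for sequencing, was run on 21 libraries of cultured synovial fibroblasts, the mesenchymal cells of the joint lining, at passages 4 to 5. The libraries form 7 groups of 3: wild-type (WT) and Tg197 cells at 3, 8 and 11 weeks, and WT cells at 8 weeks that were treated with TNF. Tg197 mice carry a human TNF transgene and develop arthritis. All groups share the strain label CBA x C57BL/6J. The labels do not give the dose or length of the TNF treatment, the H2 haplotype of any library, or whether libraries came from separate animals, so p-values measure the spread between these libraries, which may be technical. mm9 represents the C57BL/6J genome, and whether the libraries differed in their H2 alleles was not tested.

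A table lists a selection of regions that the authors deposited as lost or gained, each at least 500 bp long, with 1 normalized read value per library (reads divided by a factor of that library). Not all were under 0.05 in adjusted p: by the authors' deposited values, 42 of the 51 regions of the stretch were at 3 weeks, 96 of 96 at 8 weeks, 15 of 16 at 11 weeks and 53 of 57 with TNF. A region that is not listed has no value here. "Lost" means a lower mean in Tg197 or TNF-treated cells than in their WT controls, and "gained" a higher one. The libraries carry a position in the table and no replicate number, and are called by that position. TNF libraries 1 and 2 were identical over the 16898 regions of their table, differed by less than sampling noise and enter as 1 sample, leaving 2 TNF samples against 3 WT libraries. The TNF table and the 8-week Tg197 table use the same WT libraries: at 257 regions with the same coordinates, the reads recovered from the values were equal at all 257. In the stretch the reads per library came to 9576 to 12254 at 3 weeks, 2976 to 9380 at 8 weeks, 313 to 1203 at 11 weeks and 3550 to 5950 in the TNF table.

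Classical class I molecules show peptides from inside the cell to CD8 T cells, and class II molecules show peptides from endosomes to CD4 T cells. The immunoproteasome subunits Psmb8 and Psmb9 help to cut peptides for class I, the transporter made of Tap1 and Tap2 carries them into the endoplasmic reticulum, and tapasin (Tapbp) helps to load them. Between the class II and the distal class I genes lies the class III segment, which holds complement, lymphotoxin, TNF and Hsp70 genes. Fibroblasts express class I constitutively, and interferon induces both antigen processing and class II genes in them. Capture rises with the number of methylated CpGs in a fragment, so a value depends on both methylation and CpG density.

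Sequences are shown for 4 genes named in the results below. The CpGs in them set what a capture assay can read at the gene starts, and say nothing of regions elsewhere in the genes. The sequences are the 250 bases before the start site from RefSeq (GRCm38.p6, all on the + strand), matched by symbol, with every CpG in capitals. The listed regions are in mm9 coordinates and were not placed on them.
Ltb, chr17:35194257-35194506: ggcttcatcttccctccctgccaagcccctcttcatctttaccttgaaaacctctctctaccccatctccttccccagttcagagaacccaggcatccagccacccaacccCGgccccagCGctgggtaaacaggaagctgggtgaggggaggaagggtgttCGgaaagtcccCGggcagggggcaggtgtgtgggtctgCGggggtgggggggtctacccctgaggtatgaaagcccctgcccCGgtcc
Tap1, chr17:34187306-34187555: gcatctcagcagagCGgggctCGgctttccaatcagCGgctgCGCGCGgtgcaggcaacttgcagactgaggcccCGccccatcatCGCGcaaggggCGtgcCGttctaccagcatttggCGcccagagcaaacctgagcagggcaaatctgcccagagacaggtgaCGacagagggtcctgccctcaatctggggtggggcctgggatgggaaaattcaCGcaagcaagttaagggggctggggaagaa
Psmb8, chr17:34197945-34198194: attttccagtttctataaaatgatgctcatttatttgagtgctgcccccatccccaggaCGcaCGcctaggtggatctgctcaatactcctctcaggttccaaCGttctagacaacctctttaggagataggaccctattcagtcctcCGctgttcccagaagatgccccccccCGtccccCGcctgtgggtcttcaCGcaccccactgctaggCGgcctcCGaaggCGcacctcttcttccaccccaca
H2-Eb1, chr17:34305617-34305866: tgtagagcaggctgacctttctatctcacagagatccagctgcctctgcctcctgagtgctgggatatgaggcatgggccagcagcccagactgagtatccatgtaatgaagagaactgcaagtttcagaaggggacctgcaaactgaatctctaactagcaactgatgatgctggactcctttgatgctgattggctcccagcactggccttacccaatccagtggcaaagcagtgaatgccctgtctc
The Tap1 sequence holds 14 CpGs, Psmb8 10, Ltb 6 and H2-Eb1 0, where the median over 32851 RefSeq promoters was 6 and 7.87% had none. Among these genes only Ltb had its start site within a region listed for that gene, at 8 weeks. The sequences of Tap1, Psmb8 and H2-Eb1 are therefore not those of the regions described below. C4b and Lst1, whose start sites lay within a listed region at 8 weeks as that of Ltb did, are named only.

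The stretch held more listed regions than the median window of its size in all 4 tables. Among autosomal windows of 5 Mb, the median held 22.5 listed regions at 3 weeks, 17 at 8 weeks, 12 at 11 weeks and 28 in the TNF table, against 51, 96, 16 and 57 in the stretch. As many or more regions fell in 33 of 492 windows at 3 weeks, 6 of 492 at 8 weeks, 175 of 488 at 11 weeks and 58 of 491 in the TNF table. Promoters are defined in the tables as regions within 3 kb of a start site, upstream or downstream of it. The promoter regions named below at Trim15, Hspa1b, H2-gs10 and H2-Q10 were centred downstream of the start site. Promoter regions made up 19.6% of the stretch at 3 weeks (10 of 51) and 19.8% at 8 weeks (19 of 96). The shares over all listed regions were 5.42% and 7.67%. With TNF, 9 of 57 were promoter regions (15.8%, against 5.97% of all), and at 11 weeks 2 of 16 (12.5%, against 5.87%). The stretch is gene-dense, and no test of these shares was made.

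**Figure D1:**
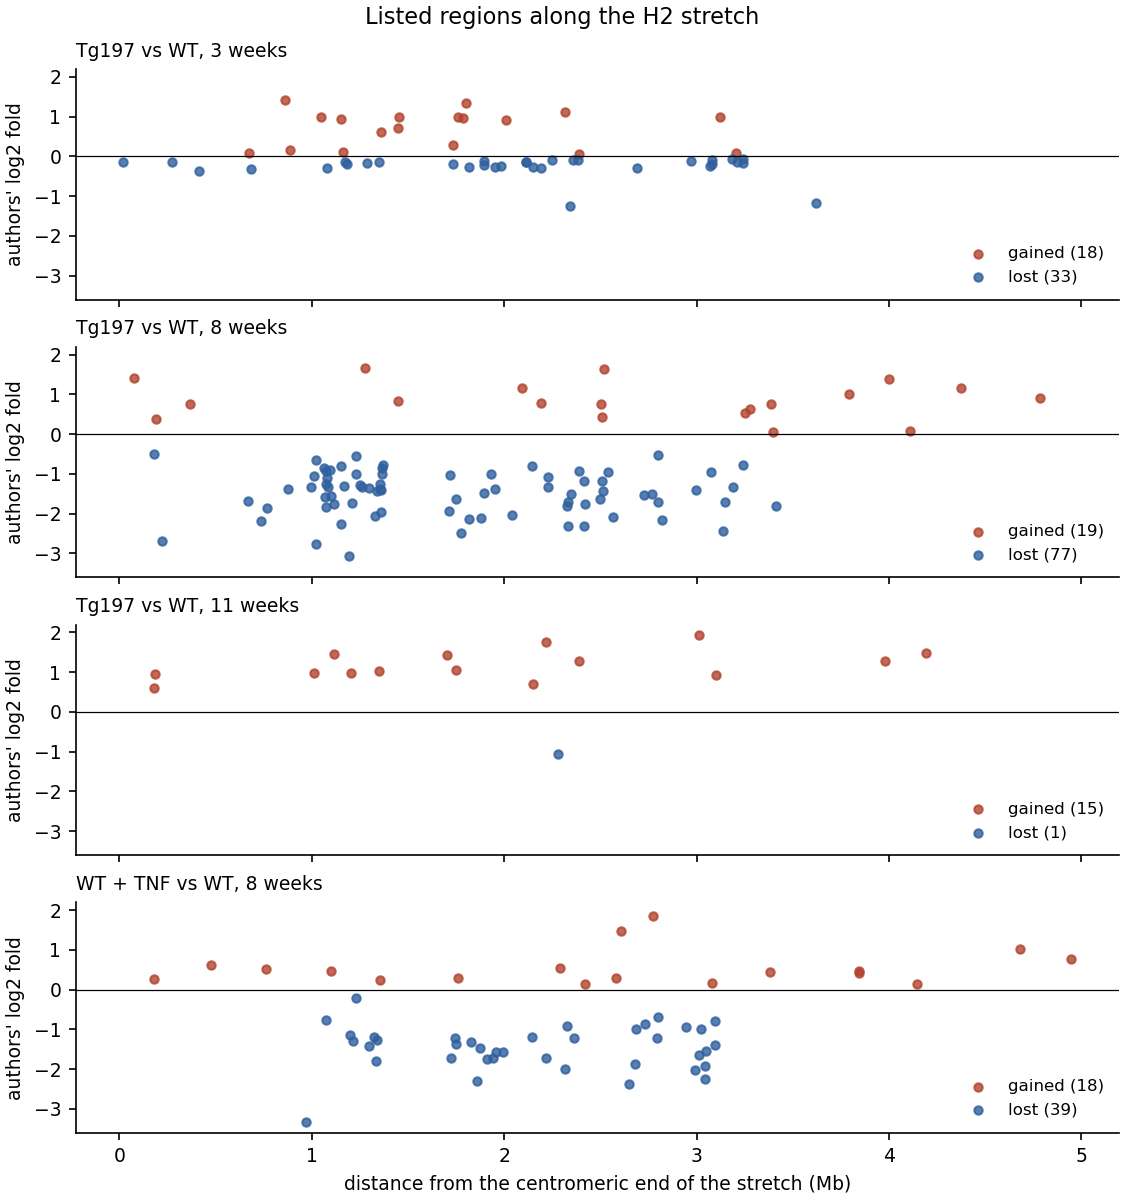
Authors' log2 fold change of every listed region (y axis) by distance from the centromeric end of the stretch in Mb (x axis), in 4 panels, 1 per table; blue points are lost and red points gained regions. At 8 weeks 77 of 96 points lie below 0, at 11 weeks 1 of 16.

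The direction differed between tables. At 3 weeks 33 regions were lost and 18 gained (64.7% lost, against 56.6% of all listed regions). At 8 weeks 77 were lost and 19 gained (80.2%, against 51.5%). At 11 weeks 1 was lost and 15 gained (6.25%, against 45.8%). With TNF, 39 were lost and 18 gained (68.4%, against 66.2%). The median authors' log2 fold change in the stretch was -0.12 at 3 weeks (-0.12 over the whole table), -1.32 at 8 weeks (-0.22), 1.04 at 11 weeks (0.78) and -1.19 with TNF (-1.14). On the rest of chromosome 17 it was -0.10, -1.24, 0.97 and -1.17 in the same order, each within 0.1 of the stretch. The rest of chromosome 17 held 54.2%, 69.9%, 35.7% and 69.4% lost regions in the same order. Thus the TNF table was close to its own background. At 8 weeks the median of the stretch was near that of the rest of the chromosome, and its share of lost regions stood above that of the chromosome by less than above the whole table.

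At 8 weeks, losses came in long runs through the class II and class III segments and on past the class I gene H2-T24. The telomeric end held gains. From 1 to 1.5 Mb into the stretch, 32 of 34 regions were lost, and in the next 0.5 Mb 9 of 9. The run with the most regions held 27 neighbouring listed regions, all lost, over 594.55 kb (chr17:33667351-34261900) from Adamts10 past Tapbp and Col11a2 to Brd2. A run of 10 over 70.15 kb (chr17:34298301-34368450) took in Tap1, Psmb8 and Tap2, a run of 10 from Notch4 to Ehmt2 spanned 326.4 kb, and a run of 11 from Bat5 past Lst1 and Ltb spanned 271.55 kb. The widest run held 13 lost regions over 705.7 kb (chr17:35537251-36242950) and took in Vars2, Ddr1, Mdc1 and H2-T24. From 2.5 to 3 Mb into the stretch 10 of 13 regions were lost, and in the next 0.5 Mb 6 of 10. Beyond 3.5 Mb into the stretch all 5 listed regions were gained. The same end held 5 gained regions and no lost one in the TNF table, 2 gained at 11 weeks and 1 lost at 3 weeks. In limma, a linear model with pooled variance, 56 of the 96 regions passed an adjusted p of 0.05, 48 lost and 8 gained, where 54.0% of all regions of the table passed (36.6% lost, 17.4% gained). The groups did not overlap at 59 of 96, against 69.6% of the table (47 lost, against 42.3%, and 12 gained, against 27.2%). The rule used this contrast, so nothing is read from these counts.

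The loss at 8 weeks was not shared evenly by the WT libraries. Summed over the 77 lost regions, WT libraries 1 and 2 held 5989 and 5650 normalized reads and WT library 3 held 2815, while the Tg197 libraries held 2274, 2201 and 2172. WT library 3 was thus nearer to the Tg197 libraries than to the other WT libraries. It was the lowest WT library at 73 of the 77 regions (94.8%), against 77.6% of lost regions outside the stretch and 88.4% on the rest of chromosome 17. It lay at or below the highest Tg197 library at 30 of 77 (39.0%), against 976 of 6087 lost regions outside the stretch (16%) and 152 of 432 on the rest of chromosome 17 (35.2%), and WT libraries 1 and 2 did so at 0 of 77. The median ratio of WT library 3 to the mean of the other WT libraries was 0.407 in the stretch, 0.446 on the rest of the chromosome and 0.709 outside the stretch. From 1 to 1.5 Mb into the stretch, the median log2 ratio to WT libraries 1 and 2 was -1.52 for WT library 3 and -1.56 for Tg197, and at 16 of 32 lost regions WT library 3 was at or below the highest Tg197 library. Without WT library 3 the median fold of the stretch, recomputed from the values, was -1.52, and 73 of 96 regions passed, where 42.3% of the whole table did. Without WT library 1, WT library 2, Tg197 library 1 or Tg197 library 3, 0 passed in limma, with 23, 31, 56 and 51 at an unadjusted p under 0.05. In these 4 fits 0 regions of the whole table passed either, with 37.6%, 36.6%, 55.6% and 49.6% at an unadjusted p under 0.05, so the zeros are not particular to the stretch. Limma voom on all libraries passed 45, and 49.0% of the table. What sets this library apart was not tested.

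**Figure D2:**
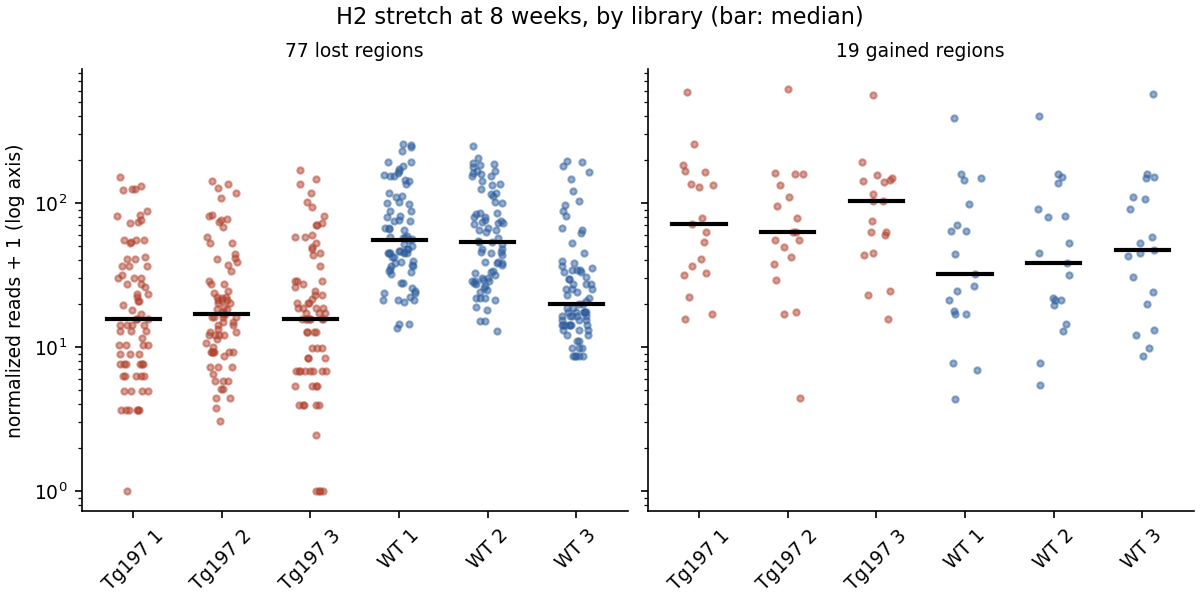
Normalized reads + 1 (y axis, log scale) in each 8-week library (x axis) at the 77 lost and 19 gained regions; each point is a region and each bar the median. Over lost regions the medians without the added 1 are 54.1, 52.4 and 18.8 in the WT libraries and 14.6, 15.9 and 14.7 in Tg197.

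**Figure D3:**
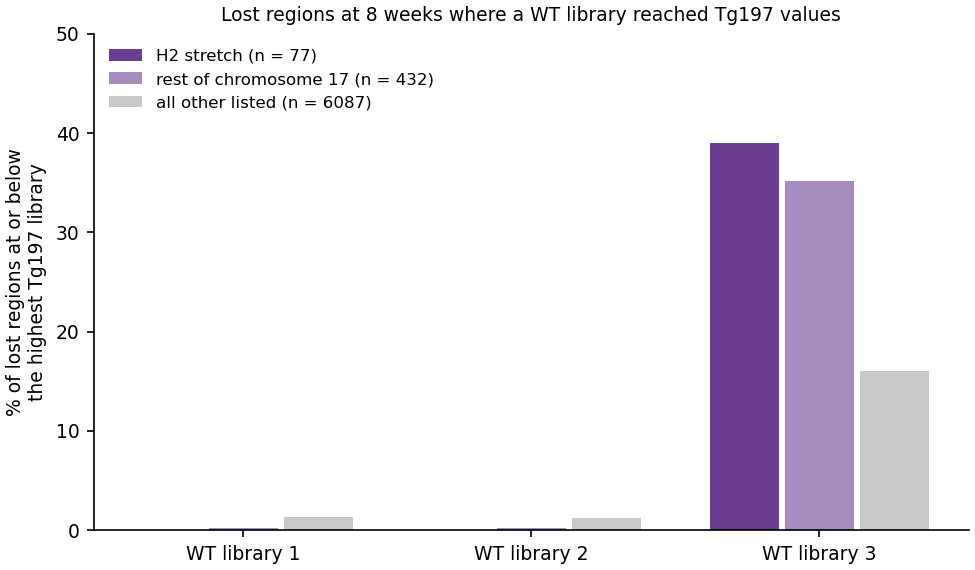
Share of lost regions at 8 weeks (y axis, percent) at which each WT library (x axis) was at or below the highest Tg197 library, for the stretch, the rest of chromosome 17 and all regions outside the stretch. WT library 3 reaches 39.0% in the stretch, against 35.2% and 16%.

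All 4 genes of class I peptide supply with a listed region at 8 weeks were lost, out of 5 on the list, with a median log2 fold of -1.35, where lost regions of the whole table had -1.52. In the gene body of Tapbp (chr17:34061601-34062350) Tg197 held 71.6, 67.1 and 80.9 normalized reads and WT 154, 142 and 103, a log2 fold of -0.86. The Tg197 libraries were all below the WT libraries there. Tap1 (gene body, chr17:34328501-34329000) held 2.65, 8.30 and 5.88 in Tg197 and 31.3, 30.7 and 7.74 in WT, and WT library 3 lay inside the Tg197 range. Psmb8 (gene body, chr17:34338201-34338850) held 11.9, 12.5 and 16.2 in Tg197 and 41.4, 44.2 and 24.3 in WT, with no overlap. Tap2 (gene body, chr17:34353551-34354350) held 19.9, 19.4 and 25.0 in Tg197 and 65.1, 74.2 and 14.4 in WT, so that WT library 3 was the lowest of the 6. The folds were -2.05, -1.44 and -1.26 for Tap1, Psmb8 and Tap2. The groups overlapped at Tap1 and Tap2 through WT library 3 alone.

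Class II genes went both ways. H2-Oa, the alpha chain of the DO molecule that modulates peptide loading, was lost at a promoter region (chr17:34231351-34231850): 123, 126 and 116 in Tg197 against 190, 178 and 164 in WT (log2 fold -0.54), with no overlap. The neighbouring H2-Oa region (chr17:34230451-34231300) held 54.3, 32.5 and 44.1 against 116, 110 and 34.3, and the groups overlapped through WT library 3. H2-Eb1, which encodes the beta chain of the class II E molecule, was gained in its gene body (chr17:34446551-34447100): 78.2, 54.7 and 103 in Tg197 against 43.1, 37.5 and 52.0 in WT (log2 fold 0.83). All 3 Tg197 libraries lay above the WT libraries, but the region did not pass in limma. It was 1 of 2 gains among the 34 regions of its 0.5 Mb. H2-Aa, H2-Ab1, H2-K1 and H2-D1 had no listed region in any table.

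**Figure D4:**
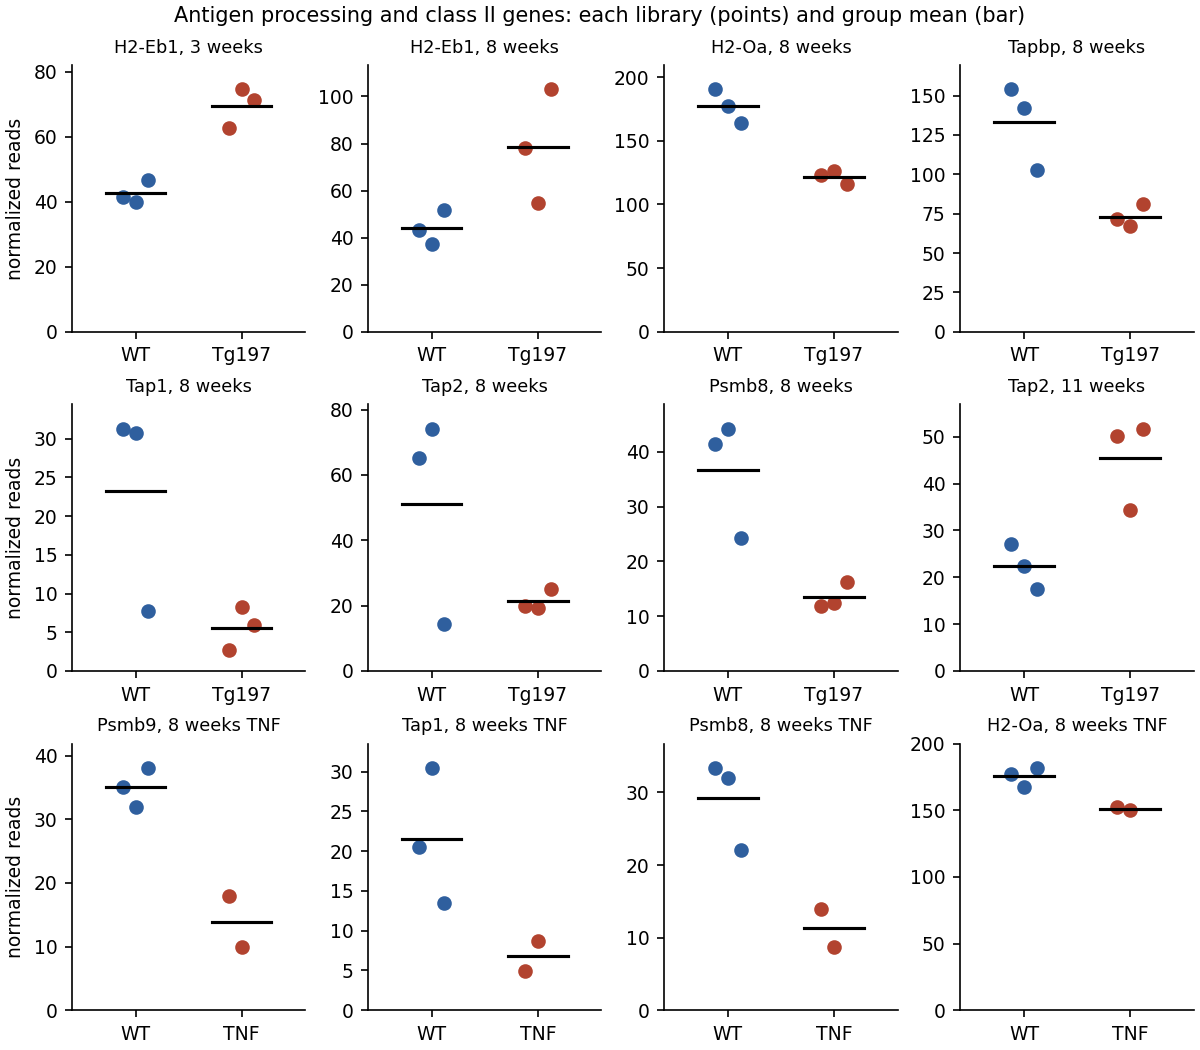
Normalized reads (y axis, from 0) in each library (points) and the group mean (bar) for antigen processing and class II genes in 12 panels, each with its own scale; the TNF panels show 2 treated samples because 2 libraries were identical. Psmb8 and Tap1 have lower means in Tg197 and TNF-treated cells at 8 weeks, H2-Eb1 higher ones in Tg197 at 3 and 8 weeks, and Tap2 a higher one in Tg197 at 11 weeks.

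Class I genes gave 3 listed regions at 8 weeks by symbol. H2-T24, a nonclassical class I gene, was lost in its gene body (6.63, 4.84 and 7.35 in Tg197, 20.3, 27.0 and 14.4 in WT, log2 fold -1.71). A promoter region of H2-gs10, whose current name is H2-Q4 (chr17:35517601-35518100), was gained: 21.2, 15.9 and 22.1 in Tg197 against 3.38, 4.49 and 11.1 in WT, log2 fold 1.64. H2-Ke2 (-1.82) is counted here by its prefix alone, since it encodes a prefoldin subunit and no class I chain. Class I genes are near-identical copies of each other, so reads may have been assigned to the wrong copy.

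In the class III segment, 8 of 9 listed regions on the list were lost at 8 weeks, at 7 of 30 genes. The share lost was 51.5% over all listed regions and 69.9% on the rest of chromosome 17. In limma 4 of the 9 passed, all of them lost, where 54.0% of all listed regions passed either way and 36.6% as lost. The groups did not overlap at 3 of the 9, against 69.6% of all listed regions. The median log2 fold over the 9 was -1.81, where lost regions of the whole table had -1.52. Ltb encodes lymphotoxin beta, and the region over its start site (chr17:35330551-35331550, start site 35331451) held 25.2, 21.5 and 16.2 in Tg197 and 98.1, 79.4 and 26.5 in WT, a log2 fold of -1.70. WT library 3 lay just above the highest Tg197 library. A further Ltb region upstream (chr17:35329051-35329650) held 2.65, 2.77 and 14.7 in Tg197 and 44.0, 47.2 and 7.74 in WT, with overlap. Lst1, a leukocyte transcript, held 7.95, 18 and 22.1 in Tg197 and 79.5, 71.9 and 16.6 in WT over its start site (chr17:35325351-35326300), again with WT library 3 inside the Tg197 range. The complement genes C4b (chr17:34880751-34881250, over its start site, -2.12) and C4a (gene body, -1.38) were lost, C4a with all Tg197 libraries below 15 and all WT libraries above 24. At C4b WT library 3 (7.74) lay below the highest Tg197 library (8.30). Tnxb, which encodes tenascin X (-2.13), and Notch4, a Notch receptor (-1.94 and -1.03 at its 2 regions), had lower means in Tg197 as well. The groups were apart at the first Notch4 region. They overlapped through WT library 3 at Tnxb, where it held 7.74 and Tg197 up to 11.8, and at the second Notch4 region, where it held 32.0 and every Tg197 library more. The gained region was a promoter region of the Hsp70 gene Hspa1b (1.17), where the Tg197 libraries held 30.5, 16.6 and 61.8 and the WT libraries 16.1, 13.5 and 18.8, with overlap.

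The largest losses at 8 weeks outside these lists had low values in Tg197. The gene body of Col11a2, a fibrillar collagen of cartilage, held 0, 4.15 and 0 in Tg197 and 12.7, 14.2 and 7.74 in WT (log2 fold -3.06). A930015D03Rik (-2.44) and intergenic regions at chr17:34022351-34023250 (-2.77), chr17:33222701-33223550 (-2.68) and chr17:34773751-34774250 (-2.49) followed. The WT libraries were uneven at the first 2 of these intergenic regions. They held 49.0, 37.5 and 13.3 at the first, and 44.0, 14.2 and 11.1 at the second, where WT library 1 stood far above the others. The largest gain, an intergenic region at chr17:34276501-34277000 (1.67), held 31.8, 3.46 and 103 in Tg197 and 16.9, 18.7 and 7.74 in WT, so it rested on Tg197 libraries 1 and 3. Other gains were at Cyp4f13 (1.42), a promoter region of Trim15 (1.39) and an intergenic region at chr17:37376451-37377400 (1.15). That intergenic region held 70.3, 62.3 and 73.5 in Tg197 and 20.3, 30.7 and 42.0 in WT. Of the chromatin and transcription genes on the list, 4 of 16 had 5 listed regions, all lost, where 51.5% of the table and 69.9% of the rest of chromosome 17 were lost. In limma 3 of the 5 passed, where 36.6% of the table passed as lost. The genes were Brd2, a BET-family acetyl-lysine reader (-1.28 and -1.34), the histone methyltransferase Ehmt2 (-2.04), the DNA damage mediator Mdc1 (-1.41) and Bat1a, the RNA helicase Ddx39b (-0.93). The groups overlapped at the second Brd2 region and at Bat1a, where WT library 3 was below every Tg197 library.

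WT cells treated with TNF gave lower capture at antigen processing and class III genes and gains near the telomeric end. In limma 51 of the 57 regions passed, against 93.8% of the whole table, 38 of them lost (64.1% of the table) and 13 gained (29.8%). The groups did not overlap at 55 of 57, against 95.8% (39 lost, against 63.5%, and 16 gained, against 32.3%). These shares were near those of the table. All 3 antigen processing genes listed fell, with a median log2 fold of -1.26, where lost regions of the whole table had -1.48. Psmb9 (gene body, chr17:34320751-34321250) held 17.9 and 9.92 with TNF and 35.1, 32.0 and 38.1 in WT; the fitted log2 change was -1.32 (limma adjusted p = 0.0109). Tap1 (chr17:34333301-34333800) held 4.98 and 8.68 with TNF and 20.6, 30.5 and 13.5 in WT (-1.49, limma adjusted p = 0.0129). Psmb8 (chr17:34338251-34338750) held 13.9 and 8.68 with TNF and 33.4, 32.0 and 22.1 in WT (-1.31, limma adjusted p = 0.0109). Each TNF value lay below every WT value at these 3 genes. H2-Oa, at 152 and 150 with TNF against 177, 168 and 182 in WT, did not pass (limma adjusted p = 0.107).

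All 10 class III regions listed with TNF, at 9 of 30 genes, fell, where 64.1% of the table passed as lost. Their median log2 fold of -1.58 was near that of lost regions over the whole table (-1.48) and on the rest of chromosome 17 (-1.46). Complement genes gave 3 of them. Cfb, complement factor B, held 8.96 and 6.20 with TNF and 24.8, 27.4 and 19.7 in WT (fitted log2 change -1.55, SE 0.38, limma adjusted p = 0.0109). C4a held 10.9 and 12.4 against 34.3, 50.3 and 17.2, and C4b 3.98 and 28.5 against 40.2, 30.5 and 29.5. At C4b the 2 TNF samples lay far apart, and the upper one was within 1 normalized read of the lowest WT library. Aif1, a macrophage-associated calcium-binding protein gene, held 3.98 and 2.48 with TNF and 14.6, 15.2 and 12.3 in WT (authors' log2 fold -2.01). The other falls were at Tnxb (-2.30 and -1.33), Notch4 (-1.71), Ly6g6f (-1.72), Nfkbil1 (-1.23) and Lst1 (-0.91). Pou5f1, the pluripotency factor Oct4 that is silent in fibroblasts, fell from 25.7, 21.3 and 28.3 in WT to 5.97 and 2.48. The deepest fall was in the gene body of Ndufa7, a subunit of respiratory complex I, from 17.1, 14.5 and 8.60 to 1.99 and 0. Further large falls were at 2610110G12Rik (Atat1, -2.25) and Mdc1 (-2.03). Gains included the class I gene H2-Q10, whose promoter region held 17.9 and 22.3 with TNF and 7.71, 4.57 and 8.60 in WT (1.48), and Dpcr1 (Mucl3, 1.84), Zfp81 (0.63), Bat2 (Prrc2a, 0.54) and intergenic regions at chr17:37682701-37683200 (1.01) and chr17:37947701-37948200 (0.77).

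The 8-week Tg197 and TNF tables share their WT libraries, so their values are given side by side and no overlap between them is read as a result. Psmb8 had a log2 fold of -1.44 in Tg197 and -1.26 with TNF, Egfl8 -1.63 and -1.36, Rgl2 -1.57 and -0.77, Vars2 -0.52 and -0.68, and H2-Oa -0.54 and -0.21. An intergenic region listed at the same coordinates in both, chr17:34298301-34298850, had -1.35 and -1.41. Another 2 overlapping pairs had opposite signs, an intergenic region at chr17:33181301-33181800 (-0.51 and 0.26) and the one at chr17:34355851-34356600 (-1.37, against 0.24 with TNF). At the 39 regions lost with TNF, the sums were 1695, 1660 and 1413 in WT and 802.3 and 722.9 with TNF. No WT library reached the TNF range, but the regions were listed for a difference from these libraries, so nothing is read from that. WT library 3 was the lowest WT library at 30 of the 39 (76.9%), against 72.4% of lost regions outside the stretch. Its median was 22.1 normalized reads, against 32.5 and 30.5 in the other WT libraries and 10.9 and 8.68 with TNF.

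At 3 weeks the stretch, like the whole table, held small losses at high-level regions beside larger gains at low-level ones. The 33 lost regions had a median WT level of 281 normalized reads and a median log2 fold of -0.16, and the 18 gained had a median WT level of 31.1 and a fold of 0.93. Over all listed regions the lost ones had a median WT level of 260 and a fold of -0.26, and the gained ones 19.2 and 1.01. The rest of chromosome 17 had 250 and -0.26 for lost regions, and 20.8 and 1.0 for gained ones. In limma 29 of 51 passed, 16 lost and 13 gained, where 85.0% of the table passed (44.7% lost, 40.3% gained). The groups did not overlap at 36 of 51, against 86.1% of the table (22 lost, against 45.5%, and 14 gained, against 40.6%). Both shares were below those of the table. H2-Eb1 was gained at 2 gene-body regions. At chr17:34446501-34447000 Tg197 held 62.6, 74.5 and 71.2 and WT 41.3, 39.8 and 46.6 (fitted log2 change 0.69, SE 0.16, limma adjusted p = 0.00243). At chr17:34451201-34451800 the values were 37.8, 43.4 and 42.5 against 20.7, 24.4 and 17 (0.97, SE 0.23, limma adjusted p = 0.00248). H2-DMb2, which encodes a chain of the DM peptide editor (adjusted p = 0.0656, limma), and Tap2 (adjusted p = 0.0609, limma) did not pass.

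Of the 9 class III regions at 3 weeks, at 8 of 30 genes, 3 fell, 2 rose and 4 did not pass. Over all listed regions 44.7% fell and 40.3% rose, so that 85.0% passed either way. The share of class III regions that passed was below this. Lta, which encodes lymphotoxin alpha and neighbours Tnf, fell near its start site (chr17:35341151-35341650): 6.48, 16 and 8.90 in Tg197 against 23.5, 29.9 and 21.6 in WT, with no overlap (fitted log2 change -1.25, SE 0.33, limma adjusted p = 0.00329). C4a (-0.27) and Tnxb (-0.27) fell by little from high levels. Aif1 rose from 10.3, 12.7 and 11.4 to 24.8, 22.6 and 27.7, and complement C2 from 20.7, 34.4 and 30.7 to 50.8, 53.7 and 56.4. Hspa1l (2 regions), Ly6g5c and Nfkbil1 did not pass. Tnf itself had no listed region in any table. Other gains that passed were at Daxx, a histone chaperone (59.4, 65.1 and 39.6 against 22.5, 29.9 and 29.5), at Ppt2 (authors' log2 fold 1.00) and at intergenic regions chr17:33861851-33862400 (1.43) and chr17:34799751-34800250 (1.34). Besides Lta, the falls of the largest size were an intergenic region at chr17:36621701-36622550 (-1.18), another at chr17:33415551-33416150 (-0.37, where WT library 2 was below the lowest Tg197 library), Adamts10 (-0.31), Clic1 (-0.28) and Wdr46 (-0.28).

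At 11 weeks the stretch carried gains. In limma 13 of 16 regions passed, 12 gained (49.7% of the table passed as gained) and 1 lost (28.2%), where 77.9% of the table passed either way. The groups did not overlap at 12 of 16, against 83.7% of the table (11 gained, against 49.4%, and 1 lost, against 34.3%). Without Tg197 library 1, Tg197 library 3 or WT library 2, 0 regions passed in limma, with 12, 10 and 14 at an unadjusted p under 0.05. In the same fits 10, 0 and 0 of the 7309 regions of the table passed, with 70.1%, 63.5% and 71.0% at an unadjusted p under 0.05. Limma voom on all libraries passed 12, and 70.3% of the table. Tap2 rose in its gene body (chr17:34348451-34349300), with 50.3, 34.4 and 51.7 in Tg197 and 27.2, 22.3 and 17.5 in WT (fitted log2 change 0.99, SE 0.29, limma adjusted p = 0.0219). Notch4 rose from 5.44, 5.58 and 9.74 to 16.8, 17.2 and 22.4, and Ly6g6f, a Ly6-family gene of the class III segment, from 1.36, 10.2 and 8.77 to 23.9, 20.6 and 25.0. Gabbr1, a GABA-B receptor subunit gene (1.49), Trim26 (1.29) and 2310014H01Rik (Ppp1r18, 1.93) rose too. Bat3, the chaperone gene Bag6, was the fall: 16.8, 17.2 and 25.9 in Tg197 against 50.3, 39.1 and 34.1 in WT (-1.05). Class I and class II genes had no listed region at 11 weeks.

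Most of the 82 genes named in the stretch were listed in 1 table (51 genes), 24 in 2, 5 in 3 and 2 in all 4. The 2 in all 4, singled out after their values were seen, were Col11a2 and Vars, which encodes valyl-tRNA synthetase: each had 1 lost region at 3 weeks, at 8 weeks and with TNF, and 1 gained at 11 weeks, at different positions in the gene. Regions that overlapped between tables were few. Of 3 overlaps between 3 and 8 weeks, H2-Eb1 went the same way (0.71 and 0.83, the second not passing in limma) and 2 went opposite ways. All 3 between 8 and 11 weeks went opposite ways: an intergenic region at chr17:34010751-34011300 (-1.06 and 0.99), AA388235 (-1.76 and 1.46) and Bat1a (-0.93 and 1.28). At these 3 the groups overlapped in both tables, at 8 weeks through WT library 3, which was below every Tg197 library at AA388235 and Bat1a. Aif1 was gained at 3 weeks (1.13) and lost with TNF (-2.01), and Agpat1 (1.05 and -1.22), Ly6g6f (1.77 and -1.72) and 2310014H01Rik (1.93 and -1.64) were gained at 11 weeks and lost with TNF. The other overlap between 11 weeks and TNF, an intergenic region at chr17:33182051-33182600, was gained in both (0.61 and 0.26), and 2 overlaps between 3 weeks and TNF besides Aif1 had small folds of opposite sign (-0.10 and -0.20, against 0.17). These reversals compare separately normalized tables with other WT libraries, and the differences were not tested.

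With all tables pooled, the longest interval with no listed region was 305.3 kb (chr17:37377401-37682700), and the next, 253.2 kb (chr17:34451801-34705000), lay between the last H2-Eb1 region and Notch4. In RefSeq that interval holds H2-Eb2, H2-Ea, Btnl2, Btnl1, Btnl4, Btnl6 and other members of the butyrophilin-like family. An unlisted interval says only that no region was selected there. No region of the stretch had an olfactory receptor gene, a family that follows the distal class I genes, as its named nearest gene. Intergenic regions carry no gene name, so whether any lay among these receptor genes was not looked at.

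Antigen presentation genes elsewhere in the genome were listed in every table, with the highest count after TNF, in the longest table. There, 7 of 34 had 8 regions, 6 that fell and 2 that rose, where 93.8% of the whole table passed, 64.1% lost and 29.8% gained. The gene body of Nlrc5, the class I transactivator, held 3.98 and 9.92 with TNF and 36, 29 and 19.7 in WT (chr8:97002801-97003750, authors' log2 fold -2.24), and that of Irf1, an interferon-induced transcription factor, 3.98 and 4.96 against 21.4, 21.3 and 11.1 (-2.06). No TNF sample reached a WT value at either gene. Cd80, a costimulator of T cells, fell as well (-1.89). Ctsl, a lysosomal protease (0.65), and Erap1, a peptide-trimming protease named after its values were seen (2.10), rose. At 3, 8 and 11 weeks 2, 2 and 3 of the 34 genes were listed, among them Jak1 at 3 weeks (1.85), Ifngr2 and Fcgrt at 8 weeks, and Ctsl and Fcgrt at 11 weeks. The other cells a synovial culture can hold were looked for through marker genes: of 11 fibroblast markers 2, 1, 0 and 2 had a listed region at 3, 8 and 11 weeks and with TNF, of 9 macrophage and osteoclast markers 2, 1, 1 and 3, of 8 lymphocyte markers 1, 2, 2 and 3, and of 6 endothelial markers 5, 1, 3 and 4. Captured DNA gives no expression level, so the cell type cannot be checked with these values, and the part of other cells in the results was not tested.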

How the data were processed

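Per the labels' protocols, DNA was sonicated to an average of 250 bp, captured with a methyl-CpG-binding protein kit in a low- and a high-salt elution that were pooled, and sequenced as 100 bp paired ends. The submitters' processing notes name mm9, BWA, TopHat, TopHat2, Cufflinks and Cuffdiff with no role. For the region caller, the test and the selection, the sources used here give no name. Per the file headers, each of the 4 deposited tables gives a region, its nearest gene, the authors' group means (a normalized signal), log2 fold change and p-values, and packed values of 3 libraries per group. Columns of unmapped samples number 0. All values were whole multiples of a step per library (within 0.1 read), so reads were recovered. Among values up to 20 reads, 57.0 to 68.4% were even, so reads are not independent fragments.

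Each table was fitted alone on log2(value + 1) over all its regions with limma 3.58.1 (mean trend, Benjamini-Hochberg over the whole table, threshold 0.05, two-sided) in R 4.3.3, with the remaining steps in Python 3.11.15. Fold changes so fitted understate changes of low regions. Without further mention, a log2 fold or median fold is the authors' (with a library left out, it was recomputed from the values), and "fell", "rose" and "passed" refer to limma. The fit was tested on simulated data. Simulated log2 changes of 1 passed in 70%, 7%, 24% and 12% of cases at 3, 8 and 11 weeks and with TNF. Log2 changes of 2 passed in 98%, 34%, 65% and 43% in the same order. Only 100 regions per size were changed there, whereas the deposited regions are a selection listed as lost or gained. The stretch, its members and the gene lists were chosen with earlier results of these data known. Named were list genes by role, the 6 largest falls and gains per table (higher mean at least 10, authors' adjusted p under 0.05), regions in several tables, and up to 5 outside genes per table. Other genes, the chromatin genes among them, were named after their values were seen. All 144 regions with a nearest gene matched RefSeq, and 76 had none. Alternatives were pseudocounts 0.1 and 5, a mean of at least 10, limma voom on recovered reads, a fold filter, the core from 34 to 36 Mb and each library left out.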

Additional observations from a re-analysis of the deposited data

Results flagged for a closer look

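At 3 places regions of the stretch had folds of opposite sign at different ages, every Tg197 library lying on the stated side of the WT mean, and no test of these differences was made because the tables were normalized separately. An intergenic region had an authors' log2 fold of 0.95 at 3 weeks (chr17:34151151-34151750) and -0.79 at 8 weeks (chr17:34150801-34151700), and the groups did not overlap at either age. The promoter of AA388235 had -1.76 at 8 weeks and 1.46 at 11 weeks, and did not pass in limma at either age. The gene body of Bat1a (Ddx39b) had -0.93 at 8 weeks and 1.28 at 11 weeks, and passed only at 11 weeks. At AA388235 and Bat1a the groups overlapped at both ages, and at 8 weeks WT library 3 (13.3 and 17.7) lay below every Tg197 library, so that against it alone the sign at 8 weeks turns.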

How the results depend on the processing

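Of 118 alternative values over 12 results, 95 kept to their result, 23 moved and 0 reversed. Only the median folds could count as reversed, since a count or a share has no sign. Requiring an absolute log2 fold of at least 1 left 7 regions passing at 3 weeks, 8 at 11 weeks and 33 with TNF. A pseudocount of 0.1 left 0 at 8 weeks, with 65 at an unadjusted p under 0.05, and 0 in the whole table. In the core from 34 to 36 Mb the share lost was 90.1% at 8 weeks and 79.5% with TNF, and 7 regions passed at 11 weeks, where fewer regions are counted. With 1 library left out, the regions passing in limma ranged from 26 to 33 at 3 weeks, 0 to 73 at 8 weeks (73 without WT library 3; 0 without WT library 1 or 2 or Tg197 library 1 or 3), 0 to 15 at 11 weeks (0 without Tg197 library 1 or 3 or WT library 2) and 37 to 49 with TNF. The median log2 fold, recomputed from the values, then ranged from -0.146 to -0.0895 at 3 weeks, -1.52 to -1.09 at 8 weeks, 0.959 to 1.37 at 11 weeks and -1.23 to -0.968 with TNF. Where 1 TNF sample remained, it was assumed to vary like the WT libraries. The cause of these moves was not tested. No paired analysis was possible because the library positions carry no replicate number. In no table is a region that did not pass shown to be equal, and how far depth sets this was not tested.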
